A study of Mus musculus with 8 samples.

Results

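The genes described here were 9 markers of primitive red blood cells, measured by RNA sequencing in single mouse embryos with and without Isl1. They were the embryonic globins Hbb-bh1, Hbb-y and Hba-x, the adult alpha globins Hba-a1 and Hba-a2, the transcription factor genes Gata1 and Klf1, the haem synthesis gene Alas2 and the erythropoietin receptor gene Epor. They were chosen by symbol from the 20701 gene symbols of the deposited table, with the transcript of the highest summed count kept for each, and all 9 passed the filter on low counts. Pharyngeal mesoderm and hearts had been dissected from C57BL/6 embryos at E8.75, a stage of 6 somites. The 8 libraries were made from 4 Isl1-/- embryos, called knockout here, and from 4 wild-type embryos, without pooling, and values are given in the order of embryos 1 to 4 of each genotype. The labels named no treatment, no Cre driver and no conditional allele. The molecule label of knockout embryo 2 read total RNA, and that of the 7 other libraries read polyA RNA.

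Primitive erythroid cells arise in the blood islands of the yolk sac and enter the embryo when the heart begins to beat. They carry haemoglobins built from embryonic globin chains, and adult chains are added and later take over. GATA1 and KLF1 bind globin and other red cell genes and switch them on, the enzyme encoded by Alas2 makes the first haem precursor in red cells, and the receptor encoded by Epor supports survival and division of red cell precursors.

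The beta-like globin genes lie together on chromosome 7 and the alpha-like genes on chromosome 11, so the counts of neighbouring copies depend on how far their sequences differ. The first 60 coding bases of each member globin are shown for that reason, read 5′ to 3′ from the NCBIM37 (mm9) genome and the GENCODE vM1 annotation. Capitals mark the bases that differ from the other embryonic beta gene for Hbb-bh1 and Hbb-y, from Hba-a1 for Hba-x, and from Hba-x for the adult alpha genes. These stretches lie at chr7:110991565-110991624 for Hbb-bh1 and chr7:111001607-111001666 for Hbb-y, both on the minus strand. On the plus strand they lie at chr11:32176664-32176723 for Hba-x, chr11:32183707-32183766 for Hba-a1 and chr11:32196524-32196583 for Hba-a2.
Hbb-bh1: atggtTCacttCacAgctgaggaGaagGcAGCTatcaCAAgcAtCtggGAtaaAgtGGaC
Hbb-y: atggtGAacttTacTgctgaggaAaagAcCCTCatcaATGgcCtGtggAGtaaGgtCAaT
Hba-x: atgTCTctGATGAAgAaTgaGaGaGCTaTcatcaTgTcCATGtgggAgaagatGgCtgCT
Hba-a1: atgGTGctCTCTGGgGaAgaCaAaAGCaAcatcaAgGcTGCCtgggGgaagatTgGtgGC
Hba-a2: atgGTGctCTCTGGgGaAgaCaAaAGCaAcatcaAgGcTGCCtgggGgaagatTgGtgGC
Over the whole coding sequence, Hbb-bh1 and Hbb-y differed at 105 of 444 bases and shared 0 of 395 windows of 50 bases. Hba-x and Hba-a1 differed at 163 of 429 bases and likewise shared no such window. The coding sequences of Hba-a1 and Hba-a2 differed at 1 of 429 bases, and 87.1% of their 50-base windows were identical. In that annotation, Hbb-bh1 spans chr7:110990150-110991678, Hbb-y chr7:111000259-111001754, Hba-x chr11:32176400-32178116, Hba-a1 chr11:32183511-32184465 and Hba-a2 chr11:32196489-32197301. The other genes lie apart from the clusters, with Gata1 at chrX:7536386-7555197, Alas2 at chrX:146981918-147005181, Klf1 at chr8:87425827-87429194 and Epor at chr9:21763343-21768020. Counts were taken over all exons of a transcript, untranslated parts included. The deposited reads of Hba-a1 exceeded those of Hba-a2 by only 1 to 16 in each embryo. The adult alpha genes therefore could not be told apart by these counts, and their values are uncertain as values of single genes.

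The windows of 150 bases before the RefSeq start were searched for CACCC, which KLF1 binds within a longer site, for GATAA, a core of GATA factor sites, and for CCAAT, each on both strands. RefSeq windows of GRCm38.p6, matched letter for letter to mm9, were at hand for 8 of the 9 genes. CACCC was found in 8 of 8 windows and in 37.4% of all 32851 windows of that length. GATAA was found in 4 of 8, those of Hba-x, Klf1, Alas2 and Epor, and in 13.3% of all windows. CCAAT was found in 4 of 8, those of Hbb-y, Hba-a1, Hba-a2 and Klf1, and in 24.5% of all windows. No match overlapped a match to another of these motifs, and the windows of Hba-a1 and Hba-a2 were nearly the same sequence. The windows of Hbb-y, Hba-a2, Klf1 and Alas2 are shown 5′ to 3′ up to the first base that GENCODE vM1 places in an exon, with matches to the motifs or their reverse complements in capitals. The CACCC matches of the Alas2 window lie in the part inside that exon and are not shown. The stretches shown lie at chr7:111001755-111001871 on the minus strand for Hbb-y. On the plus strand they lie at chr11:32196342-32196488 for Hba-a2, chr8:87425731-87425826 for Klf1 and chrX:146981810-146981917 for Alas2.
Hbb-y: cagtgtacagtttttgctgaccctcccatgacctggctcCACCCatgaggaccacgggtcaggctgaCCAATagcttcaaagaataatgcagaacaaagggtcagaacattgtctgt
Hba-a2: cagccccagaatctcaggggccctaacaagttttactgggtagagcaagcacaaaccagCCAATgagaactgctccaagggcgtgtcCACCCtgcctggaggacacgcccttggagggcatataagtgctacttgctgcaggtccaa
Klf1: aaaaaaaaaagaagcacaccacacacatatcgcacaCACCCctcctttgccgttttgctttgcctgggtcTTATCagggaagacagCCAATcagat
Alas2: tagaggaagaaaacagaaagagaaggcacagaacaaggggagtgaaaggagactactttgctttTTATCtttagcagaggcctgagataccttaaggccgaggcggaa
A match is a description of the letters only, and no binding was measured here.

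The libraries held between 18916452 and 26153039 counted reads. Isl1, the deleted gene, was measured in CPM, counts per 1000000 reads scaled with TMM factors. Its level was 9.72, 9.76, 26.9 and 23.3 CPM in the wild type against 2.32, 2.16, 1.78 and 2.40 CPM in the knockout, a log2 fold change of -3.00 (SE 0.36, adjusted p = 0.0041 by edgeR). Y-linked genes summed to 276 to 300 CPM in 1 of 4 wild-type and 3 of 4 knockout embryos, and to at most 0.0829 CPM in the others. The heart was represented in every library, with Myh6, a heart myosin gene, between 294 and 965 CPM.

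Hbb-bh1, which encodes an embryonic beta-like chain, was the most abundant of the 9 genes. The wild-type embryos gave 1164, 787, 207 and 540 CPM, and the knockout embryos gave 626, 1544, 916 and 737 CPM. The groups overlapped, wild-type embryo 3 was the lowest of the 8 embryos, and knockout embryo 2 was the highest. The log2 fold change of knockout over wild type was 0.50 (SE 0.45, adjusted p = 0.605, edgeR quasi-likelihood test with Benjamini-Hochberg adjustment).

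Hbb-y, the gene of the other embryonic beta-like chain, had the widest range. It was measured at 350, 270, 22.1 and 227 CPM in the wild type, against 175, 409, 338 and 296 CPM in the knockout. Wild-type embryo 3 held 524 Hbb-y reads, whereas the other libraries held 4515 to 9860, so its level was far outside counting error. The highest embryo exceeded the lowest 18.5-fold, and the log2 fold change between genotypes was 0.48 (SE 0.60, adjusted p = 0.717, edgeR).

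Hba-x encodes the embryonic alpha-like chain that pairs with these beta-like chains. The wild type had 749, 402, 121 and 350 CPM, whereas the knockout had 398, 1032, 552 and 444 CPM. The order of the embryos was close to that of Hbb-bh1, with the same lowest and highest embryo. The log2 fold change was 0.58 (SE 0.47, adjusted p = 0.563, edgeR).

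The adult alpha gene Hba-a1 was measured at 36.7, 27.2, 5.52 and 24.0 CPM in the wild type, against 23.4, 54.3, 37.1 and 31.8 CPM in the knockout. Hba-a2, with nearly the same reads, ranged from 5.48 CPM in wild-type embryo 3 to 53.7 CPM in knockout embryo 2. Their log2 fold changes of 0.65 (SE 0.46, adjusted p = 0.493, edgeR) and 0.64 (SE 0.46, adjusted p = 0.499, edgeR) are 1 measurement rather than 2 independent ones.

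The regulators and the receptor were present at far lower levels. Gata1, the gene of the GATA factor that drives red cell differentiation, had 7.76, 4.04, 3.50 and 3.0 CPM in the wild type, compared with 2.82, 10.4, 4.34 and 2.74 CPM in the knockout. It was high in wild-type embryo 1 and knockout embryo 2 and lay between 2.74 and 4.34 CPM in the 6 others, and wild-type embryo 3 was not the lowest. Its log2 fold change was 0.15 (SE 0.46, adjusted p = 0.888, edgeR), and without knockout embryo 2 it was -0.47.

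Klf1, which encodes a zinc finger activator of globin genes, had 6.43, 2.57, 1.85 and 3.12 CPM in the wild type, compared with 3.60, 6.72, 4.24 and 3.28 CPM in the knockout. It had a log2 fold change of 0.35 (SE 0.38, adjusted p = 0.668, edgeR). The same 2 embryos, wild-type embryo 1 and knockout embryo 2, were the highest for both transcription factor genes.

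Alas2, the red cell form of the first enzyme of haem synthesis, reached 27.7, 16.8, 5.18 and 15.2 CPM in the wild type, against 17.4, 37.6, 22.5 and 20.7 CPM in the knockout. Wild-type embryo 3 was again the lowest and knockout embryo 2 the highest. The log2 fold change was 0.60 (SE 0.42, adjusted p = 0.488, edgeR).

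Epor reached 6.55, 3.86, 3.37 and 2.55 CPM in the wild type, against 3.83, 7.46, 5.54 and 4.31 CPM in the knockout. It had the narrowest range of the 9 genes, with a 2.93-fold distance from the lowest to the highest embryo. Its log2 fold change was 0.37 (SE 0.31, adjusted p = 0.566, edgeR). In dissected tissue, fewer red cells and less RNA per red cell cannot be told apart, and this holds for all values given here.

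**Figure D1:**
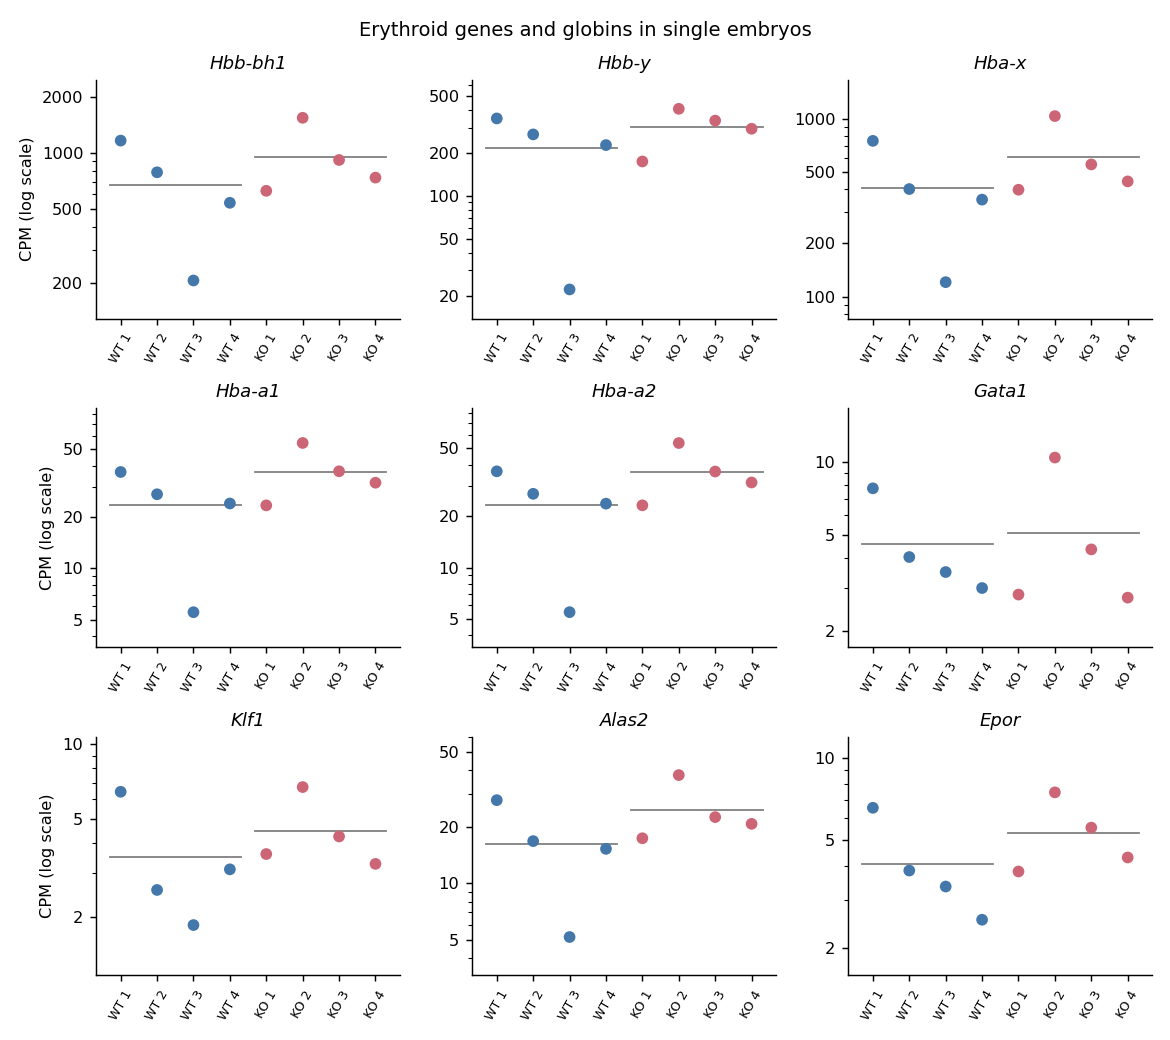
CPM (log axis) of the 9 genes in each embryo, with wild-type (WT) embryos in blue, knockout (KO) embryos in red and the mean of each genotype as a line. Knockout embryo 2 was the highest for 9 of 9 genes and wild-type embryo 3 the lowest for 7 of 9.

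Levels between genes were compared per length, as deposited RPKM (reads per kilobase of transcript and per 1000000 counted reads). Median RPKM over the 8 embryos was 741 for Hbb-bh1, 432 for Hba-x, 272 for Hbb-y, 31.4 for Hba-a1, 31.0 for Hba-a2, 5.91 for Alas2, 1.37 for Klf1, 1.36 for Epor and 1.15 for Gata1. The order from Hbb-bh1 down to Klf1 was the same in 8 of 8 embryos for each pair of neighbours, although the ranges over embryos of each pair overlapped. For Hba-a1 over Hba-a2 that order rested on ratios of 1.01 to 1.02 and on shared reads. Klf1 exceeded Epor in 4 of 8 embryos and Epor exceeded Gata1 in 4 of 8, so the 3 lowest genes had no fixed order.

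The adult beta genes were close to the floor of the globin family. Hbb-bs, an adult beta gene of the same cluster, ranged from 1.48 to 5.56 RPKM, and Hbb-bt from 0.326 to 1.36 RPKM. Together they made up 0.305% to 0.893% of adult plus embryonic beta-like RPKM, with the highest share in wild-type embryo 3. On the alpha side, Hba-a1 made up 4.69% to 7.14% of Hba-a1 plus Hba-x. The table also lists the adult beta genes under the names Hbb-b1 and Hbb-b2, whose reads differed from those of Hbb-bs and Hbb-bt by at most 5, so these are not further genes.

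To ask whether the loss of Isl1 changed the erythroid genes, the genotypes were compared in 1 model over 14075 genes. Of the 9 genes, 0 passed an adjusted p of 0.05, beside 0.973% of all genes tested (137 genes, of which 15 were higher and 122 lower in the knockout). At an unadjusted p under 0.05 the count was 0 of 9, beside 17.4% of all genes, and DESeq2 likewise called 0 of 9, beside 5.04% of all genes. The genotypes overlapped for 9 of 9 genes, whereas 10.3% of all genes had groups that did not overlap.

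The estimates were nevertheless all above 0, with a median log2 fold change of 0.50 for the 9 genes, beside 0.0063 for all genes, of which 51.2% were above 0. These 9 estimates are not 9 observations, since the genes varied together between embryos. The 10 yolk sac endoderm markers likewise had 10 of 10 estimates above 0, with a median log2 fold change of 0.43. The intervals were wide. For Hbb-bh1 the 95% interval ran from -0.50 to 1.51, and for Hbb-y from -0.85 to 1.82. For Epor, the most precisely measured, it ran from -0.31 to 1.06, that is from 0.806-fold to 2.08-fold. Each of the 9 intervals included a 2-fold higher level in the knockout and none included a 2-fold lower level, so the missing calls do not show that the genotypes were alike.

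**Figure D2:**
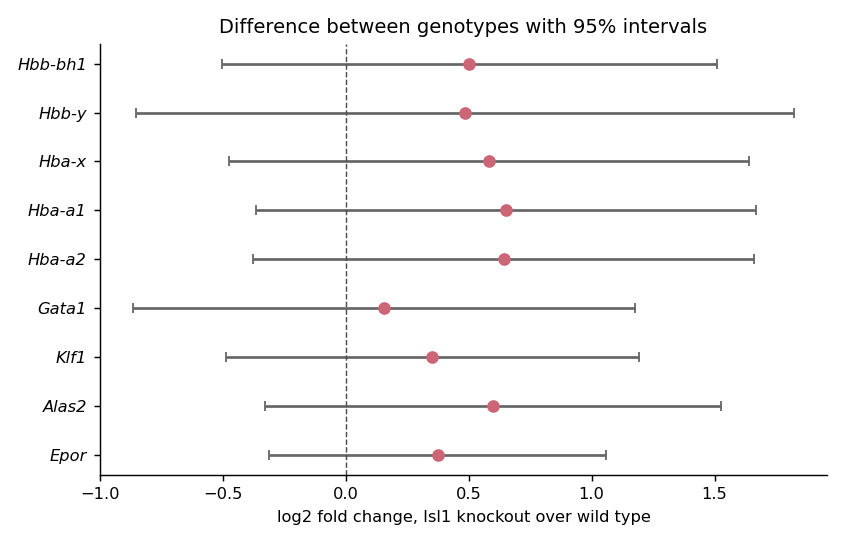
Log2 fold change of knockout over wild type for the 9 genes (points) with 95% intervals from edgeR, based on 4 embryos of each genotype. All points lie above 0, from 0.15 for Gata1 to 0.65 for Hba-a1, and every interval includes 0.

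The size of the estimates depended on single embryos. Without wild-type embryo 3, the log2 fold change was 0.20 for Hbb-bh1, 0.11 for Hbb-y, 0.28 for Hba-x and 0.30 for Alas2. Without knockout embryo 2, the library with the total RNA label, it was 0.18 for Hbb-bh1, 0.31 for Hbb-y, 0.20 for Hba-x, 0.09 for Klf1 and 0.32 for Alas2. Without wild-type embryo 1 the estimates were larger, with 1.06 for Hba-x, 0.99 for Alas2 and 0.82 for Klf1. In that fit 4 of 9 genes (Hba-x, Klf1, Alas2 and Epor) had an unadjusted p under 0.05, beside 11.8% of the 14205 genes tested, and the lowest adjusted p was 0.337.

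The 9 genes were among the most variable genes within a genotype. The within-genotype SD of log2 CPM was 1.36 for Hbb-y, 0.93 for Hba-a1, 0.89 for Hba-x, 0.85 for Hbb-bh1, 0.79 for Alas2, 0.75 for Gata1, 0.61 for Klf1 and 0.49 for Epor. The median over all genes tested was 0.165, and the 9 genes stood between the 91.4th and the 99.0th percentile. In the knockout alone, the highest embryo exceeded the lowest 2.47-fold for Hbb-bh1, 2.34-fold for Hbb-y and 3.80-fold for Gata1. In the wild type the same distance was 5.63-fold for Hbb-bh1, 15.8-fold for Hbb-y and 2.58-fold for Gata1. The wild-type distance was set by embryo 3 for the globins and by embryo 1 at the upper end. Across all genes, 17.9% had their lowest value in wild-type embryo 3 and 11% their highest value in knockout embryo 2.

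**Figure D3:**
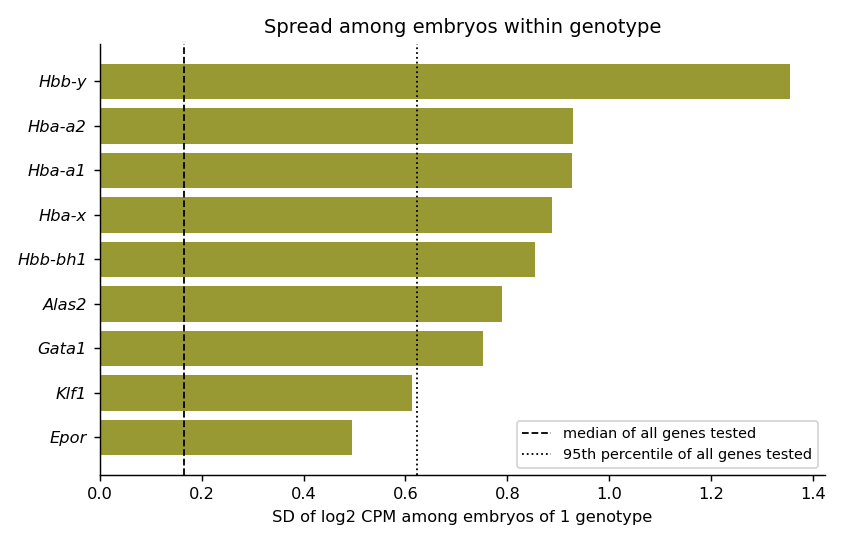
SD of log2 CPM among embryos of the same genotype for the 9 genes (bars), pooled over both genotypes, with the median (dashed line) and the 95th percentile (dotted line) of all 14075 genes tested. The bars run from 0.49 for Epor to 1.36 for Hbb-y, all above the median of 0.165.

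The total of red cell transcripts and the balance between them were different measurements, so ratios were formed within each embryo from reads per kilobase. The ratio of Hbb-y to Hbb-bh1 was 0.296, 0.338, 0.105 and 0.415 in the wild type, compared with 0.275, 0.261, 0.363 and 0.396 in the knockout. The mean was 0.289 ± 0.132 (SD, n = 4) in the wild type and 0.324 ± 0.066 (SD, n = 4) in the knockout, and the groups overlapped (exact two-sided permutation test, p = 0.743). Wild-type embryo 3 stood below the others, at 0.311 of the median of the 7 other embryos. In reads, Hbb-y made up 9.65% of the Hbb-y plus Hbb-bh1 reads of that embryo (95% Wilson interval 8.89% to 10.5%), whereas it made up 20.9% to 29.6% in the others. These intervals cover counting error only and hold no variation between embryos. The reads carried no molecular identifiers.

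The adult alpha genes were at 0.105, 0.144, 0.0976 and 0.146 of the Hba-x level in the wild type, compared with 0.125, 0.112, 0.143 and 0.153 in the knockout, with Hba-a1 and Hba-a2 summed although they hold nearly the same reads. Wild-type embryo 3 was the lowest for this ratio too, but it was next to wild-type embryo 1. The genotypes did not differ beyond their spread (exact permutation test, p = 0.543).

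Alpha-like and beta-like transcripts kept a narrow balance. Their ratio was 0.558, 0.444, 0.589 and 0.534 in the wild type, compared with 0.571, 0.600, 0.514 and 0.505 in the knockout. It thus varied between 0.444 and 0.600 while Hbb-bh1 itself varied 7.47-fold, and the genotypes overlapped (exact permutation test, p = 0.714). Alas2 was likewise at a near constant share of the embryonic globins, between 0.00353 and 0.00454, and the genotypes overlapped (exact permutation test, p = 0.657). The ratio of Hba-a1 to Hba-a2 ran from 1.01 to 1.02 (exact permutation test, p = 0.171). Over these 5 ratios the Benjamini-Hochberg adjusted p was 0.743 for each, and the smallest p that 4 against 4 embryos allow is 0.0286.

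**Figure D4:**
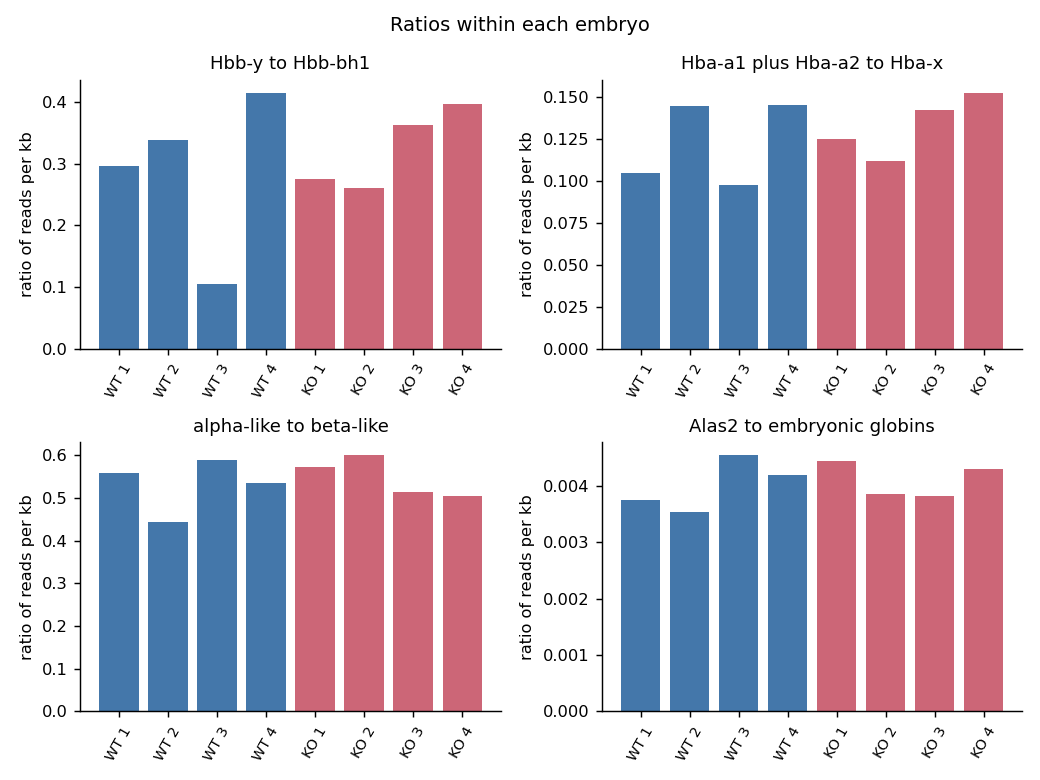
Ratios of reads per kilobase within each embryo, for wild-type (WT, blue) and knockout (KO, red) embryos, 1 bar for each embryo. The Hbb-y to Hbb-bh1 ratio of wild-type embryo 3 is 0.105, below the 0.261 to 0.415 of the other embryos, whereas the alpha-like to beta-like ratio stays between 0.444 and 0.600.

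The regulators did not keep such a balance with the globins in wild-type embryo 3. For each 1000 reads per kilobase of Hbb-bh1, Hbb-y and Hba-x, Gata1 stood at 3.18 in that embryo and at 0.592 to 1.11 in the others. Epor stood at 3.19 in that embryo and at 0.756 to 1.06 in the others. Klf1 stood at 2.09 in that embryo and at 0.696 to 1.18 in the others, whereas Alas2 stood at 4.54, next to the 3.53 to 4.44 of the others. In CPM, wild-type embryo 3 was at 0.263 of the median of the 3 other wild-type embryos for Hbb-bh1, at 0.309 for Alas2, at 0.595 for Klf1, at 0.867 for Gata1 and at 0.874 for Epor. These shares were noticed in the data and were not tested.

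How closely the other genes followed the embryonic globins was measured over the 8 embryos, against the log2 of the summed CPM of Hbb-bh1, Hbb-y and Hba-x. That sum was 2263, 1459, 349 and 1118 CPM in the wild type, compared with 1199, 2985, 1807 and 1477 CPM in the knockout. Relations were computed for 10 measures, with exact permutation p-values over all pairings and Benjamini-Hochberg adjustment over the 10.

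Alas2 followed the embryonic globins most closely, with Pearson's r = 0.993 (exact permutation p = 9.92e-05, adjusted p = 0.000496) and Spearman's rho = 0.976 (exact permutation p = 0.000397, adjusted p = 0.00132). Hba-a1 had r = 0.986 (exact permutation p = 0.000149, adjusted p = 0.000496) and rho = 0.952 (exact permutation p = 0.00114, adjusted p = 0.00285). Hba-a2, with the same reads, had r = 0.986 (exact permutation p = 7.44e-05, adjusted p = 0.000496) and rho = 0.976 (exact permutation p = 0.000397, adjusted p = 0.00132). Klf1 had r = 0.884 (exact permutation p = 0.00144, adjusted p = 0.0036) and rho = 0.881 (exact permutation p = 0.00724, adjusted p = 0.0145). After leaving out wild-type embryo 3 and knockout embryo 2, the 2 embryos farthest from the median sum, r was 0.944 for Alas2, 0.923 for Hba-a1, 0.929 for Hba-a2 and 0.777 for Klf1 over the 6 others.

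Epor and Gata1 followed less closely over all 8 embryos. Epor had r = 0.722 (exact permutation p = 0.0347, adjusted p = 0.0693) and rho = 0.976 (exact permutation p = 0.000397, adjusted p = 0.00132), so its linear relation did not pass after adjustment while its rank relation did. Gata1 had r = 0.619 (exact permutation p = 0.110, adjusted p = 0.184) and rho = 0.667 (exact permutation p = 0.0831, adjusted p = 0.138). Over the 6 embryos left without wild-type embryo 3 and knockout embryo 2, r was 0.941 for Epor and 0.886 for Gata1. Without wild-type embryo 3 alone, r for Gata1 was 0.946, and without knockout embryo 2 alone r for Epor was 0.615. Taken as deviations from the genotype means, r was 0.995 for Alas2, 0.985 for Hba-a1, 0.863 for Klf1, 0.662 for Epor and 0.674 for Gata1.

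Depth and other cell types were compared with the same sum. The total count had r = -0.170 (exact permutation p = 0.667, adjusted p = 0.842) and rho = -0.262 (exact permutation p = 0.536, adjusted p = 0.619). The summed yolk sac endoderm markers had r = 0.0619 (exact permutation p = 0.908, adjusted p = 0.908) and rho = 0.476 (exact permutation p = 0.243, adjusted p = 0.347), and r = 0.639 without wild-type embryo 3 and knockout embryo 2. For the endothelial markers r was -0.123 (exact permutation p = 0.758, adjusted p = 0.842) and rho 0.214 (exact permutation p = 0.619, adjusted p = 0.619), with r = 0.730 over the 6 embryos. For the cardiomyocyte markers r was -0.200 (exact permutation p = 0.689, adjusted p = 0.842) and rho -0.238 (exact permutation p = 0.582, adjusted p = 0.619), with r = 0.203 over the 6 embryos. Without wild-type embryo 3 alone, r for the yolk sac endoderm markers was 0.786 (exact permutation p = 0.0397, not adjusted).

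**Figure D5:**
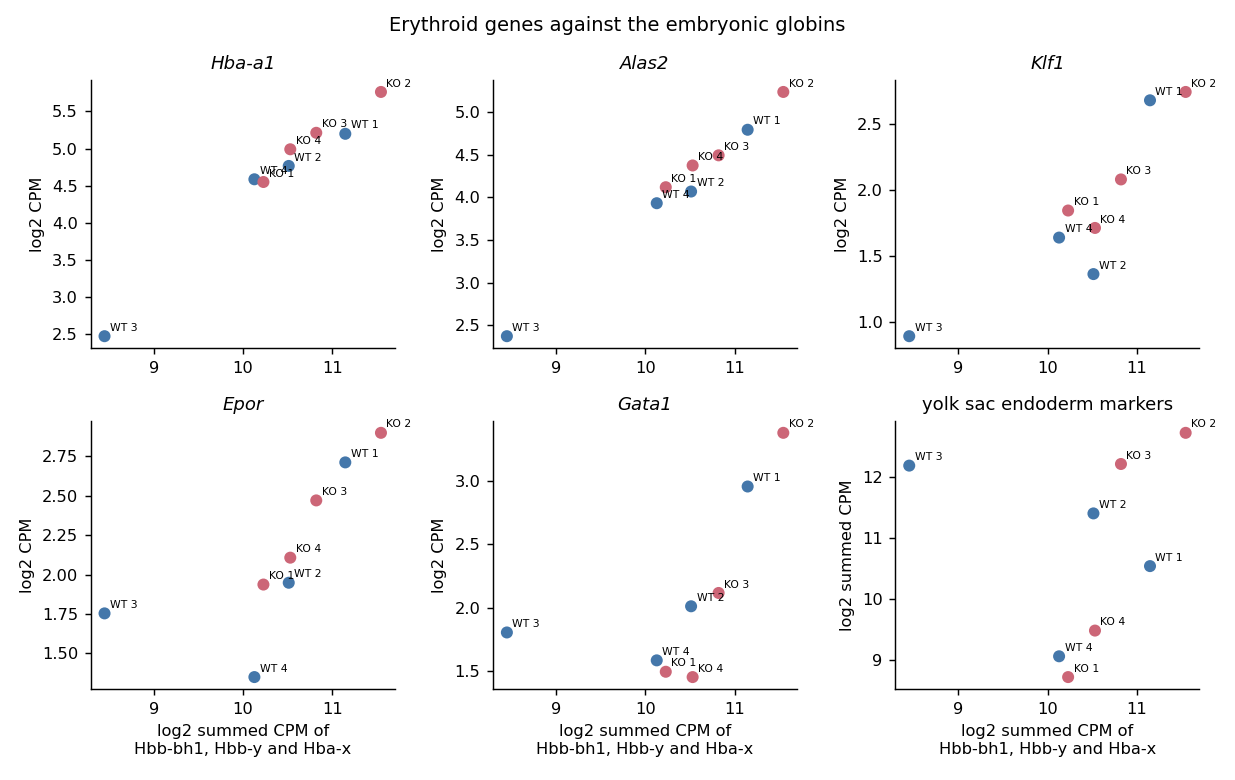
Log2 CPM of Hba-a1, Alas2, Klf1, Epor, Gata1 and of the summed yolk sac endoderm markers (vertical axes) against the log2 summed CPM of Hbb-bh1, Hbb-y and Hba-x (horizontal axes), 1 point for each embryo, wild type (WT) in blue and knockout (KO) in red. Pearson's r was 0.993 for Alas2, 0.619 for Gata1 and 0.0619 for the endoderm markers, and wild-type embryo 3 lies at the left of each panel.

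The 10 other genes whose log2 CPM was most like that of the embryonic globins were mostly genes of the red cell membrane, and 7 of the 10 were in the erythroid lists described next. Slc4a1, which encodes the anion exchanger band 3, had r = 0.994 over the 8 embryos. It ran from 8.60 CPM in wild-type embryo 3 to 101 CPM in knockout embryo 2. Hemgn, an erythroid nuclear protein gene, had r = 0.981. Kel, which encodes a red cell surface protein, had r = 0.967, Trim10 had r = 0.955, and Add2, encoding a membrane skeleton adducin, had r = 0.946. The 3 outside the lists were Dusp10 (r = 0.980), Ube2l6 (r = 0.948) and Pkhd1l1 (r = 0.945). Dusp10 varied only 1.87-fold over the embryos, against 11.8-fold for Slc4a1. These r values are a description over 8 embryos that share libraries and scaling, and 24 of 14066 non-member genes (0.171%) had r above 0.9, beside a median r of 0.0158.

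Other genes of the erythroid pathway were described by lists. Of the 16 tested genes for the red cell membrane and its skeleton, 0 passed an adjusted p of 0.05, and 15 of 16 estimates were above 0, with a median log2 fold change of 0.20. The median r of this list with the embryonic globins was 0.83, and 6 of its genes had r above 0.9. Its 3 most abundant genes were Epb41 (log2 fold change 0.03, adjusted p = 0.801, edgeR), Slc4a1 (0.50, adjusted p = 0.666, edgeR) and Sptb (0.21, adjusted p = 0.741, edgeR). Epb41, a protein 4.1 gene used in many tissues, had r = 0.293.

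Of 12 red cell enzyme and other erythroid genes, 0 passed, with a median log2 fold change of 0.12 and a median r of 0.698. Prdx2, an antioxidant peroxiredoxin gene, had a log2 fold change of -0.07 (adjusted p = 0.796, edgeR), Gpx1, for glutathione peroxidase, -0.10 (adjusted p = 0.734, edgeR), and Cat, for catalase, 0.02 (adjusted p = 0.916, edgeR). These 3 were the most abundant of that list, and their r values were 0.552, 0.689 and 0.742. Of 14 haem synthesis and iron uptake genes, 0 passed, with a median log2 fold change of 0.04 and a median r of 0.585. Tfrc, the transferrin receptor gene, was at -0.19 (adjusted p = 0.443, edgeR), Slc25a37, for the mitochondrial iron importer, at 0.14 (adjusted p = 0.748, edgeR), and Cpox, for a haem synthesis enzyme, at 0.11 (adjusted p = 0.825, edgeR). Urod, the haem pathway decarboxylase gene, was the 1 gene of this list with r above 0.9 and was picked after its value was seen.

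Of 11 tested erythroid transcription factor genes other than Gata1 and Klf1, 0 passed, 6 estimates were above 0 and 5 below, and the median r was 0.156. The 3 most abundant were Ldb1 (0.09, adjusted p = 0.448, edgeR), which encodes a partner of GATA1 complexes, Klf3 (0.19, adjusted p = 0.477, edgeR) and Zfpm1 (-0.18, adjusted p = 0.579, edgeR), the gene of the GATA1 cofactor FOG1. Of 12 erythropoietin signalling genes, 0 passed, and the median r was 0.118. Kit, the stem cell factor receptor gene, was at 0.37 (adjusted p = 0.0968, edgeR), Bcl2l1, a survival gene, at -0.13 (adjusted p = 0.444, edgeR), and the kinase gene Jak2 at 0.11 (adjusted p = 0.50, edgeR). Kit lay between 61.4 and 74.7 CPM in the wild type and between 77.0 and 97.5 CPM in the knockout, so that its groups did not overlap, as was the case for 10.3% of all genes.

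Genes listed as neighbours of the globin clusters spread less than the globins. Their positions in the mouse genome were not looked up, so they are not shown to lie next to these clusters. Of 10 tested, 0 passed, with a median log2 fold change of 0.09 and a median r of 0.243. Rrm1, the most abundant of that list, ran from 453 to 570 CPM, while Luc7l and Polr3k ran from 147 to 180 CPM and from 72.7 to 99.6 CPM. Of the tested genes Trim6 spread most, from 19.6 to 45.9 CPM. Its within-genotype SD of log2 CPM was 0.466, beside 0.85 for Hbb-bh1. Of 5 tested rows of other globins, 0 passed, and their median log2 fold change was 0.48, the value of Hbb-b2 and Hbb-bt, which hold the same reads. The 3 with the highest mean were Hbb-bs (0.22, adjusted p = 0.828, edgeR), its other name Hbb-b1 (0.22, adjusted p = 0.826, edgeR) and Hbb-b2 (0.48, adjusted p = 0.646, edgeR). Hbb-bh2, a beta-like gene next to Hbb-bh1 that was picked after its value was seen, had the largest estimate of these rows, 1.94 (SE 0.67, unadjusted p = 0.0168, adjusted p = 0.191, edgeR). It rested on 12, 4, 5 and 1 reads in the wild type against 10, 46, 11 and 14 reads in the knockout, so the groups overlapped.

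Markers of platelets and macrophages were scarce, whereas the list of blood progenitor markers summed higher through a few of its genes. Of 10 megakaryocyte and platelet markers, 3 passed the filter on low counts, Gp6 and Treml1 had 0 reads in each library, and the list summed to 7.49 to 12.2 CPM in the wild type and 8.51 to 10.6 CPM in the knockout. Its 3 most abundant genes were Itga2b, Gp1bb and Gp1ba, and 0 of 3 passed the test. Of 10 macrophage and leukocyte markers, 3 were tested and 0 passed, and the list summed to 6.01 to 8.68 CPM in the wild type and 4.02 to 6.59 CPM in the knockout. Cd68, Csf1r and Lyz2 were its most abundant genes. Progenitor markers, led by Kit, Cd93 and Cd34, summed to 167 to 200 CPM in the wild type and 179 to 226 CPM in the knockout. Mean levels over the embryos were 77.8, 35.7 and 31.1 CPM for these 3 and 19.4 CPM for Mecom. The means of Gata2, Hlf, Ikzf1, Myb and Runx1 were 7.02, 6.28, 6.08, 5.55 and 2.16 CPM, beside 5.88 CPM for Itga2b. Of the 9 progenitor genes, 0 passed, and the median r was -0.088.

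Markers of tissues that could have been carried along in the dissection were compared in the same way. The 10 yolk sac endoderm markers, led by Apob, Cubn and Afp, summed to 1493, 2717, 4676 and 536 CPM in the wild type, compared with 423, 6786, 4763 and 717 CPM in the knockout. None of the 10 passed the test (0 at an adjusted p of 0.05 by edgeR and 0 at an unadjusted p under 0.05), and the median r was 0.060. The sum was high in knockout embryo 2, where the globins were highest, and also in wild-type embryo 3, where they were lowest. The 12 endothelial markers, led by Kdr, Cdh5 and Tek, summed to 435 to 560 CPM in the wild type and to 361 to 504 CPM in the knockout, and 0 of 12 passed.

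Cardiomyocyte markers were lower in the knockout, with 9 of 12 past an adjusted p of 0.05. They summed to 3128 to 4697 CPM in the wild type and to 1692 to 2565 CPM in the knockout. Myh7, a heart myosin gene, had a log2 fold change of -1.18 (SE 0.15, adjusted p = 0.00453, edgeR), and Tnnt2, for cardiac troponin T, of -0.90 (SE 0.13, adjusted p = 0.00994, edgeR). Within the wild type, embryo 3 had the lowest sum of these markers, 3128 CPM, and within the knockout, embryo 2 had the lowest, 1692 CPM. Pharyngeal mesoderm markers summed to 85.7 to 167 CPM in the wild type, with the highest value in embryo 3, and to 77.6 to 126 CPM in the knockout, and Isl1 was the 1 of 8 tested that passed. The part of these tissues, of embryo sex and of the RNA label in the erythroid values was not tested.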

How the data were processed

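RNA from the pharyngeal mesoderm and heart of single embryos was made into libraries from 100 ng each. The authors mapped reads to mm9 with STAR and counted them over RefSeq exons on both strands with HOMER, and the deposited count values are raw. For RPKM, the authors used edgeR to divide counts by transcript length and library total. Versions are not given in the sources used here, nor is the treatment of reads shared between copies. Counting strand-blind, reads of antisense genes cannot be told apart. The deposited length column held transcript lengths, and the deposited columns of the authors' own DESeq2 comparison (mean, fold change, its error, statistic and p-values) were not used.

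For each symbol the transcript with the highest summed count was kept. Counts were filtered with filterByExpr, TMM-scaled and tested with the quasi-likelihood model of edgeR 4.0.16 in R 4.3.3 over all 8 embryos, with Benjamini-Hochberg adjustment over 14075 genes. Log2 CPM used a prior count of 2. DESeq2 1.42.0 was an alternative. Ratios and correlations used exact two-sided permutation tests over all splits or pairings of the embryos, computed in Python 3.11.15 with numpy 2.4.6. The p-values treat the embryos as independent. The labels do not say whether embryos shared a litter, so this could not be checked. Depth was 18916452 to 26153039 counted reads for each library. The test was also run on simulated data with the means and depths of these libraries. There 178 of 200 changed genes were called, with 6 false calls among 13964 genes. At 2-fold 81 of 98 were called and at 4-fold 97 of 100, and 0 calls were made without change. These rates were not broken down by the spread of the genes. The erythroid genes had within-genotype SDs of log2 CPM of 0.49 to 1.36, beside a median of 0.165 over all genes tested. The simulated rates therefore do not show how often a change in the erythroid genes would be called.

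The 9 genes and the 14 gene lists were chosen with earlier results of these data known. Genes were named by rule: the 9 genes, Isl1, in each list the genes past the threshold or otherwise the 3 most abundant, and the 10 genes most correlated with the embryonic globin sum. Some genes that the rule picks are not reported here. Of the cardiomyocyte genes past the threshold, Myh7 and Tnnt2 were described.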

Additional observations from a re-analysis of the deposited data

Results flagged for a closer look

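The summed level of the 17 red cell membrane and cytoskeleton genes in knockout embryo 2 was 687 CPM, whereas the 3 other knockout embryos lay between 502 and 526 CPM. The gap between that embryo and its nearest neighbour was 0.870 of the range of the 4 knockout embryos, above Dixon's critical value. Of 58 groups of 4 embryos examined, 1 was set apart in this way, and chance alone does so in about 1 of 20. Knockout embryo 2 carried the total RNA label and was also the highest for 9 of the 9 erythroid genes.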

How the results depend on the processing

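The count of 0 of 9 erythroid genes past the threshold was found in all 14 other fits, in which the lowest adjusted p was 0.337 (edgeR, without wild-type embryo 1). RLE scaling, no filter on low counts, DESeq2, library sizes without the 9 genes and the fit of all transcripts left the 9 log2 fold changes within their main direction and side of the threshold, as did the other length scaling, transcript choice and scale for the ratios, and deposited RPKM for the correlations. Using Hba-a1 alone for the adult alpha genes was chosen after seeing the data and also kept the direction. The number of all genes past the threshold was 137 in the main fit, 709 with DESeq2, 309 over all transcripts, and 70 to 490 when leaving out 1 embryo, with 490 without wild-type embryo 3.

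With the replicate number as a replicate block, 0 of 9 genes and 76 of all genes passed, and the log2 fold change was 0.81 for Hbb-y, 0.67 for Hbb-bh1 and 0.04 for Gata1. The deviations of same-numbered embryos correlated at 0.109, 0.212, 0.0863 and 0.507, not every embryo correlated best with its own number, and no source ties the numbers to litters, so the numbers were not taken as pairs.

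Leaving out 1 embryo at a time, the log2 fold change of Gata1 ran from -0.47 (without knockout embryo 2) to 0.54, and it was -0.0039 without wild-type embryo 4. The log2 difference between genotypes ran from -0.12 (without wild-type embryo 3) to 0.54 for Hbb-y to Hbb-bh1, from -0.036 (without wild-type embryo 2) to 0.10 for alpha-like to beta-like and from -0.017 (without wild-type embryo 2) to 0.10 for Alas2 to embryonic globins. The correlation with the embryonic globins ran from 0.436 to 0.946 for Gata1, from 0.615 to 0.946 for Epor, from -0.243 to 0.786 for yolk sac endoderm, from -0.305 to 0.695 for endothelial and from -0.417 to 0.101 for cardiomyocyte markers. The lower ends for Gata1, Epor and endoderm, and the upper end for cardiomyocyte markers, were those without knockout embryo 2. The upper ends for Gata1, Epor, endoderm and endothelial markers were those without wild-type embryo 3. For Epor the unadjusted exact permutation p was also above 0.05 without wild-type embryo 1, knockout embryo 1 or knockout embryo 3. The r values were then 0.684, 0.721 and 0.712, beside 0.722 over all 8 embryos, so r itself changed little. For endoderm markers r was -0.0026 without knockout embryo 3. As deviations from genotype means, r was 0.662 for Epor, with an unadjusted exact permutation p of 0.0718. It was 0.0456 for endothelial markers, 0.462 for cardiomyocyte markers and 0.0793 for the total count. The causes of these changes were not tested. Gata1 held 56 to 251 reads in each library, Klf1 held 44 to 162 and Epor held 67 to 180. The part of counting error in these changes was not tested.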
